A study of Arabidopsis thaliana with 20 samples.

Results

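Cysteine-rich receptor-like kinases (CRKs) of Arabidopsis thaliana were followed across an ozone exposure in 3 genotypes. The family was taken by name, as the loci CRK2 to CRK34, CRK36 to CRK42, CRK45 and CRK46, which gave 42 of the 33602 genes in the count tables. Of these, 39 had enough counts to be tested, among 19954 genes tested in all. The members not tested were CRK25, CRK33 and CRK46.

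Whole rosettes of plants 3 weeks old were sampled after 2 h in 350 ppb ozone or without ozone, and RNA was sequenced from pools of 5 rosettes. The wild type Col-0 gave 4 ozone and 4 control libraries. Libraries labelled wrky25 wrky33 (the double mutant) and wrky75 numbered 3 with ozone and 3 without for each genotype. The series asks how the transcription factors WRKY25, WRKY33 and WRKY75 take part in the response to reactive oxygen species in the apoplast.

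CRKs are transmembrane kinases with extracellular DUF26 domains, which carry conserved cysteines, and a kinase domain inside the cell. They form one of the largest groups of receptor-like kinases in Arabidopsis, and many stand in tandem arrays on chromosome 4. Ozone breaks down in the apoplast to reactive oxygen species, and CRK genes are known for induction by ozone, pathogens and salicylic acid in leaves. WRKY factors bind the W-box, a short DNA element that many defence genes carry in their promoters.

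Total counts ran from 20486137 to 20771667 per library. None of the lines had lost the transcript of its mutated gene, so transcript levels did not check the genotypes, and the genotype names used here are those of the labels. Under ozone WRKY25 stood at 104 to 144 CPM (counts scaled to the size of each library) in Col-0 and at 176 to 223 CPM in libraries labelled wrky25 wrky33, where WRKY33 stood at 224 to 426 CPM against 320 to 730 CPM in Col-0. WRKY75 stood at 28.0 to 72.8 CPM in ozone libraries labelled wrky75 and at 48.0 to 129 CPM in those of Col-0. The 5 rosette markers summed to 22283 to 33463 CPM in Col-0 control and 11898 to 21029 CPM in Col-0 ozone libraries, and 4 of the 5 fell under ozone in Col-0, with a median log2 fold change of -0.83 over the 5. The 3 flower markers summed to at most 2.96 CPM and the 2 seed markers to at most 0.201 CPM in any library. The root hair markers COBL9, EXPA7 and RHD6 were at or near 0, whereas PYK10, the fourth root marker, stood at 16.6 to 79.8 CPM in Col-0 control. What these shifts add to the values of the CRKs was not tested. In pooled tissue, fewer cells of a type and less RNA per cell cannot be told apart.

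By locus number, 34 members fell into 5 tandem runs and 8 stood alone. The longest run, CRK5 to CRK24, held 20 genes on chromosome 4. The others were CRK36 to CRK40 with 5 genes, CRK30 to CRK34 with 5, CRK28 with CRK29, and CRK2 with CRK3 on chromosome 1. CRK4, CRK25, CRK26, CRK27, CRK41, CRK42, CRK45 and CRK46 were the single loci. For 29 of the 34 tandem members the closest coding sequence in the family belonged to the same run. Identity was 89.8% between CRK19 and CRK20, 86.5% between CRK31 and CRK32, and 86.4% between CRK39 and CRK40. These were aligned over 1934, 1938 and 1958 bases. CRK8 and CRK9 had 90.2% identity, but over 795 aligned bases alone. CRK9 was short, with 265 codons and 1 exon, and CRK45 had 354 codons.

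Close copies can share reads, and how the authors counted reads that map to several places is not given in the sources used here. In 16 members no exonic stretch of 50 bases recurred elsewhere in the genome. More than 10% of the stretches recurred in 4 members. These formed the pairs CRK6 with CRK8, sharing 20.04% and 15.54% of their stretches, and CRK22 with CRK13, sharing 16.15% and 15.36%. Values of these 4 genes are therefore uncertain by the reads that each pair could exchange. CRK20 shared 3.5% of its stretches with CRK19 and 2.94% with CRK23.

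The 300 bases before the annotated gene start were searched for the W-box letters TTGACC and TTGACT on both strands. A match lay in 27 of 42 members (64.3%), against 8855 of 27443 coding genes (32.3%), and at least 2 matches lay in 14 members (33.3%, against 7.9% of coding genes). With the gene starts in the deposited files instead, 29 members had a match (69.0%, against 33.1%). A match is a run of letters and was not shown to be bound. Not every window lies between genes. That of CRK28 lies within the annotated gene CRK29, and that of CRK16, with 2 matches, within CRK17. Some others reach into a neighbouring gene, such as that of CRK34, with a gap of 18 bases. The windows below are those of CRK5 and CRK11, which had the most matches in the family with 4 each, and of CRK20, CRK22 and CRK13, whose levels under ozone are set against the double mutant further on. They are RefSeq sequence of TAIR10.1, printed 5′ to 3′ on the strand of the gene and ending at the base before its start, with W-box letters of either strand in capitals. The window of CRK5 is chr4:12120221-12120520 (minus strand) and that of CRK11 chr4:12143859-12144158 (minus strand). Those of CRK20, CRK22 and CRK13 are chr4:12174433-12174732 (plus strand), chr4:12181325-12181624 (plus strand) and chr4:12151639-12151938 (minus strand).
CRK5: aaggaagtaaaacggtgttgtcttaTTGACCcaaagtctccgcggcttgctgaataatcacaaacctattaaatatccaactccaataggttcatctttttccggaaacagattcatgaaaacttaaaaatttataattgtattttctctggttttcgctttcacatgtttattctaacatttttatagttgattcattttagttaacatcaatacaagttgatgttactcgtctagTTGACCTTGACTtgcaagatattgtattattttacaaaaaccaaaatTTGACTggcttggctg
CRK11: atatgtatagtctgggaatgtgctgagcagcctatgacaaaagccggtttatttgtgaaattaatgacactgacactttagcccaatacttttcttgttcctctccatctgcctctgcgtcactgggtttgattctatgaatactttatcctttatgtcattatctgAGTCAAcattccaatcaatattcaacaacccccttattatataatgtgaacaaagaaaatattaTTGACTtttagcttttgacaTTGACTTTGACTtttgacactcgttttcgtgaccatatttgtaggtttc
CRK20: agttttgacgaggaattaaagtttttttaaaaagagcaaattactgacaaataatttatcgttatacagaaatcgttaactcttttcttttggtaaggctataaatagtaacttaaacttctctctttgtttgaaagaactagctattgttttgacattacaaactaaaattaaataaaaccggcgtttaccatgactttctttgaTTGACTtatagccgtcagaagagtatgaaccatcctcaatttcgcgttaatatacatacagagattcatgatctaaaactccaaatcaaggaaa
CRK22: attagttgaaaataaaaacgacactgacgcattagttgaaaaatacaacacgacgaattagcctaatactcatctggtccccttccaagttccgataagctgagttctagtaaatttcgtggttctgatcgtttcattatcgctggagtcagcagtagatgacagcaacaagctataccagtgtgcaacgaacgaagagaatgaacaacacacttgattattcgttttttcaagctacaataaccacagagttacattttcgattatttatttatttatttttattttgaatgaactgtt
CRK13: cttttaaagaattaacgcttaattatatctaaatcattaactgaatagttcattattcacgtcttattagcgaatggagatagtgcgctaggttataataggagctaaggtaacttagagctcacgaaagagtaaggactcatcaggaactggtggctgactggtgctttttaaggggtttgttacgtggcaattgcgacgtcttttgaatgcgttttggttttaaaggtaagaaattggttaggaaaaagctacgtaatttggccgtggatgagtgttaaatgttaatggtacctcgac

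In CRK5 the matches began 275, 63, 57 and 16 bases before the start, and in CRK11 133, 69, 49 and 43 bases before it. CRK20 had 1 match, 94 bases before the start, whereas the windows of CRK22 and CRK13 had none.

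Without ozone, 31 members stood above 1 CPM on average in Col-0, and the family summed to 583 ± 64.2 CPM (SD, n = 4). Levels between genes are given per kilobase of RefSeq exon, while reads were counted on the gene models of the deposited files. CRK9 has 1824 exonic bases in RefSeq, but its counted model runs only from base 12135093 to 12136157. CRK40 has 3095, but its whole counted model runs from base 2289959 to 2292755. The counted models of CRK3, CRK16, CRK28 and CRK29 are also shorter than their RefSeq exons. Values per kb of all these genes are therefore too low, and the order holds for RefSeq lengths alone. CRK21 had the highest level in every control group, at 35.1 CPM per kb in Col-0, 39.8 in wrky25 wrky33 and 37.0 in wrky75. CRK21 led each control group in CPM as well. By RefSeq lengths CRK18 (20.2 CPM per kb) and CRK10 (18.7 CPM per kb) came next in Col-0. In wrky25 wrky33 control CRK18 came second by these lengths as well, at 15.8 CPM per kb. At the other end CRK31 stood at 0.0462 CPM per kb and CRK32 at 0.00551 CPM per kb in Col-0 control.

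The 3 members that were not tested were nearly silent. CRK33 had no count in any library, where 0 counts over the 4 Col-0 control libraries allow a level of up to 0.036 CPM (3 counts, counting error only). CRK46 had 4 counts in all, in 4 libraries, and CRK25 had 81 counts, with 0.36 CPM at most. CRK25 overlaps AT4G05190 by 492 bases on the opposite strand, and the library kit does not mark strand. Reads within those 492 bases cannot be assigned between the genes. CRK42 overlaps AT5G40382 by 92 bases in the same way, a gene with 19 counts in all libraries against 6020 for CRK42.

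**Figure D1:**
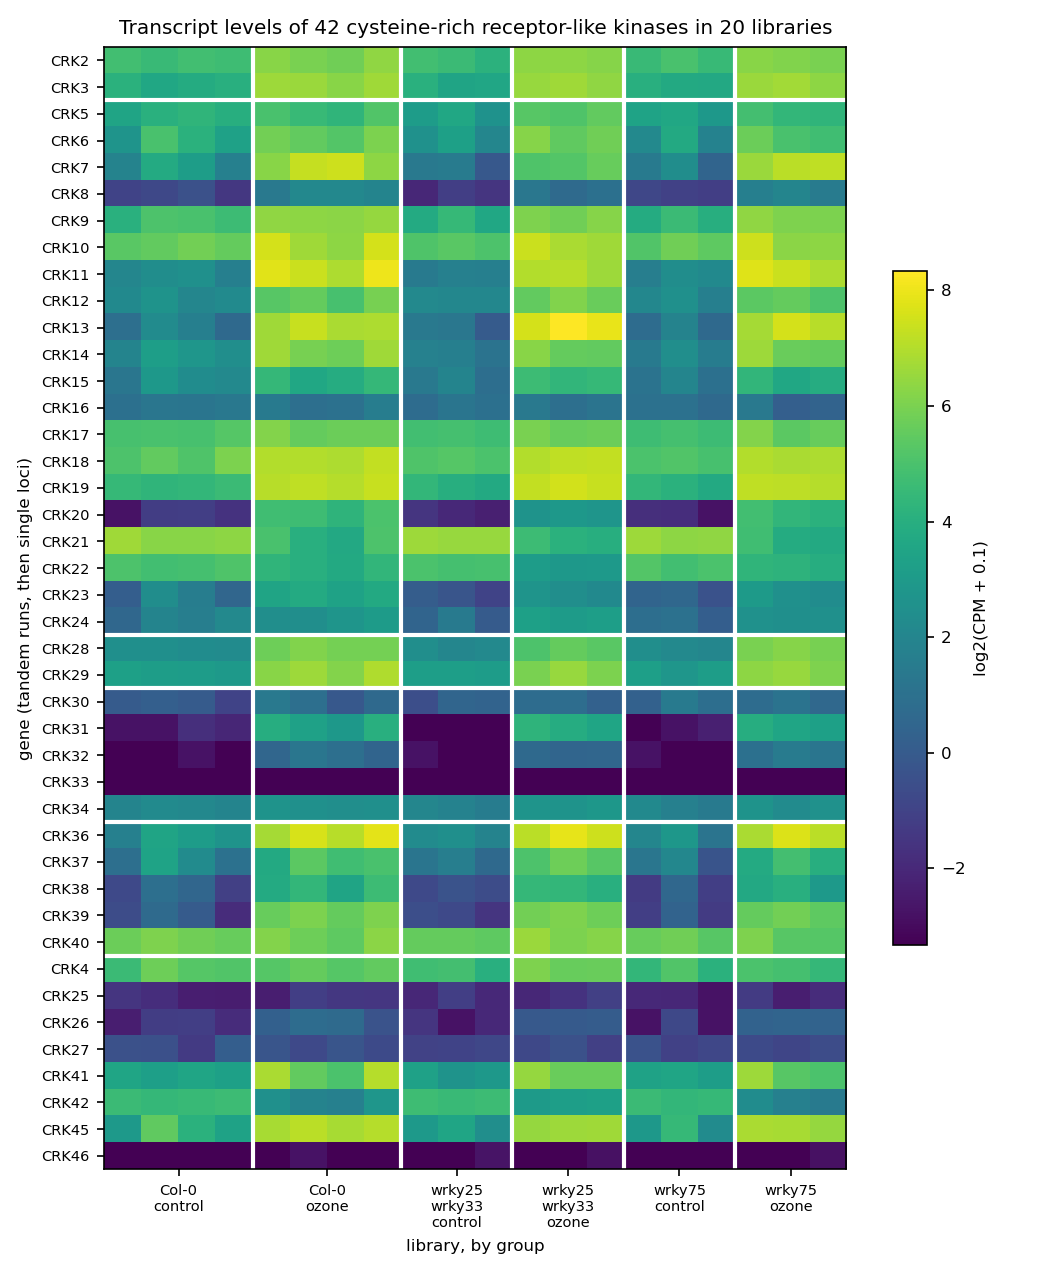
Transcript level of each of the 42 members (rows, tandem runs first and single loci last) in each of the 20 libraries (columns, by group), as log2(CPM + 0.1) by colour. Most rows are brighter in the ozone columns of all 3 genotypes, CRK21, CRK22 and CRK42 are darker there, and CRK33 holds 0 throughout.

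Ozone raised most of the family in Col-0. Of 39 tested members, 32 rose and 3 fell (quasi-likelihood test of edgeR, Benjamini-Hochberg adjusted p below 0.05 over all genes), while 4 did not pass, CRK4, CRK16, CRK27 and CRK40. Ozone changed much of the transcriptome, with 69.7% of all tested genes called, 33.3% higher and 36.4% lower. With another scaling, by upper-quartile factors, the split over all genes moved from 6635 higher and 7272 lower to 5436 and 9176, and the median over all genes of the log2 fold change from -0.08 to -0.28. The members' split moved to 30 higher and 3 lower. The median log2 fold change of the members was 2.32, and 29 of the 39 rose at least 2-fold, as did 17.9% of all genes. In 31 members every ozone library lay above every control library, which held for 29.3% of all genes. The summed level of the family went to 2231 ± 336 CPM (SD, n = 4).

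CRK31, CRK20, CRK32 and CRK39 had the largest fitted log2 fold changes among called members, where the place of CRK32 rests on 1 control count. The filter on counts lets a gene in through any group. In Col-0 control CRK31, CRK20 and CRK32 stayed below 0.36 CPM, the highest level of CRK25, which did not pass it. Members so low in control could enter the test, and the 32 rises, only through ozone libraries. With the control groups of Col-0 and wrky25 wrky33 alone, 34 members passed the filter. CRK31 (AT4G11470, chr4:6967709-6970469) stood at 0.0502, 0.0477, 0.196 and 0.137 CPM in the Col-0 control libraries and at 15, 10.1, 7.31 and 16.4 CPM in the ozone libraries. Its log2 fold change was 6.74 ± 0.42 (SE; edgeR adjusted p = 7.63e-10). CRK32 (AT4G11480, chr4:6971401-6973962), its neighbour, had a single read in 1 of the 4 control libraries (0.0489 CPM) and stood at 1.32, 2.29, 1.83 and 1.25 CPM under ozone. The groups of both genes lay apart, and for CRK32 the ratio of 138 to 1 counts was 140 (95% interval 24.8 to 5578, counting error only).

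CRK20 (AT4G23280, chr4:12174733-12177576) is a kinase whose overexpression is known to trigger cell death. Its control libraries held 0.0502, 0.334, 0.343 and 0.228 CPM and its ozone libraries 27.3, 26.2, 18.9 and 32.4 CPM. CRK39 (AT4G04540, chr4:2259498-2262320) went from 0.552, 1.53, 0.93 and 0.182 CPM to 48.6, 66.0, 47.5 and 66.8 CPM. Both were low in all control libraries and high in all ozone libraries, with log2 fold changes of 6.73 ± 0.29 for CRK20 and 6.16 ± 0.35 for CRK39 (SE; edgeR adjusted p = 1.78e-12 and 5.58e-11).

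The 3 members that fell were expressed in every control library. CRK21 (AT4G23290, chr4:12177734-12180936), the highest member of the control groups, dropped from 100, 76.8, 75.5 and 80.9 CPM to 31.1, 16.1, 13 and 33.3 CPM (log2 fold change -1.84 ± 0.27, SE; edgeR adjusted p = 7.66e-06). CRK42 (AT5G40380, chr5:16151522-16155215), a single locus, went from 24.4, 21.3, 23.3 and 25.4 CPM to 5.62, 3.66, 3.25 and 6.94 CPM (-2.28 ± 0.19; edgeR adjusted p = 9.58e-09). CRK22 (AT4G23300, chr4:12181625-12184774) went from 33.3, 27.8, 29.2 and 35.0 CPM to 19.8, 16.1, 13.4 and 20.5 CPM (-0.85 ± 0.13; edgeR adjusted p = 1.23e-05). In each of the 3 every ozone library lay below every control library, as in 30% of all genes.

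Members with a known place in signalling also rose. CRK2, which phosphorylates the NADPH oxidase RBOHD, went from 26.2 ± 1.7 to 70.4 ± 12.9 CPM (SD, n = 4; log2 fold change 1.42 ± 0.15, SE). CRK28 (AT4G21400, chr4:11398857-11402180), which associates with the co-receptor BAK1, went from 5.17 ± 0.31 to 60.5 ± 6.41 CPM (3.55 ± 0.13). CRK36 rose from 7.32 ± 3.31 to 168 ± 56.5 CPM (4.51 ± 0.39), and its interactor CRK45, also named ARCK1, from 19.8 ± 16.7 to 123 ± 13.7 CPM (2.63 ± 0.46). CRK5, linked to leaf senescence and cell death, changed less, from 15.8 ± 3.4 to 27.6 ± 7.56 CPM (0.81 ± 0.23). CRK6 and CRK7, linked to protection against extracellular reactive oxygen species, had log2 fold changes of 1.65 ± 0.44 and 4.05 ± 0.47. Each of these 7 passed the edgeR test, with adjusted p from 3.73e-13 for CRK28 to 0.00441 for CRK5.

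The rise of CRK30 was the least firm, at a log2 fold change of 1.01 ± 0.36 (SE; edgeR adjusted p = 0.0196) with overlapping groups. It was lost without Col-0 control replicate 4 (0.82, edgeR adjusted p = 0.0599) and without Col-0 ozone replicate 1 (0.72, edgeR adjusted p = 0.0915). With upper-quartile scaling the calls of CRK30 and CRK34 were lost (edgeR adjusted p = 0.0519 and 0.137).

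Under ozone the order of levels changed. By RefSeq exon length CRK11 had 76.1 CPM per kb in Col-0, CRK36 73.9 and CRK45 73.2. These values lay closer together than the libraries of CRK11, which ran from 120 to 261 CPM. CRK9 is not placed in this order, since its counted model is shorter than its RefSeq exon. That holds for CRK3, CRK16, CRK28, CRK29 and CRK40 as well. CRK11, CRK36 and CRK19 made up 22.6% of the family's counts in Col-0 ozone libraries, where CRK21, CRK40 and CRK10 had made up 32.1% in control.

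**Figure D2:**
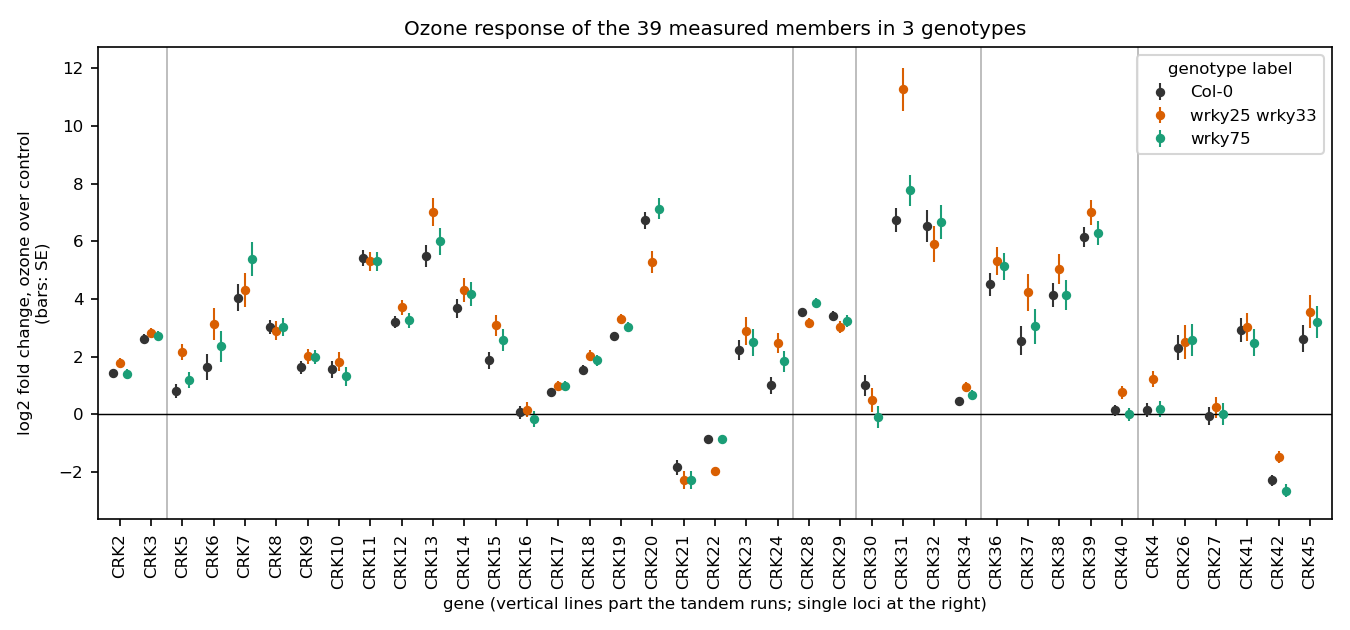
Log2 fold change of ozone over control (points, with SE bars) for the 39 tested members in the 3 genotypes, ordered by tandem run with the single loci at the right. Most points lie above 0 in each genotype, CRK21, CRK22 and CRK42 lie below it, and the point of CRK31 in wrky25 wrky33 (11.27) is a fit against 0 counts.

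Tandem runs and single loci both rose in sum. In Col-0 the 34 tandem members summed to 490 ± 38.8 CPM in control and 1978 ± 285 CPM under ozone, and the 8 single loci to 93.0 ± 26.4 and 253 ± 54.0 CPM (SD, n = 4). Of 33 tested tandem members 29 rose and 2 fell (median log2 fold change 2.55), and of 6 tested single loci 3 rose and 1 fell (median 1.24). Over all genes tested 33.3% rose and 36.4% fell. The single loci that rose were CRK26, CRK41 and CRK45. In Col-0 the sum of the single loci rose mainly through CRK45 and CRK41. CRK45 went from 19.8 ± 16.7 to 123 ± 13.7 CPM, CRK41 from 10.6 ± 1.1 to 80.7 ± 48.2 CPM and CRK26 from 0.24 ± 0.119 to 1.22 ± 0.428 CPM (SD, n = 4). The sums in control and under ozone were 402 ± 34.9 and 1952 ± 137 CPM for tandem members in wrky25 wrky33, and 417 ± 46.5 and 1809 ± 198 CPM in wrky75 (SD, n = 3). For single loci they were 65.4 ± 9.18 and 226 ± 26.1 CPM in wrky25 wrky33, and 69.6 ± 19.3 and 195 ± 51.5 CPM in wrky75. With 6 tested single loci, and members that share sequence within runs, the gap between the kinds of locus was not tested.

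The runs differed in size of response. In Col-0 the pair CRK28 and CRK29 had log2 fold changes of 3.55 and 3.41, and the run CRK36 to CRK40 a median of 4.14 with a range of 0.14 to 6.16. The run CRK30 to CRK34 had a median of 3.78 over 4 tested genes, and the run CRK5 to CRK24 a median of 1.76 with a range of -1.84 to 6.73. In that long run 17 members rose, 2 fell and 1 (CRK16) did not pass, where 33.3% of all genes rose and 36.4% fell.

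Neighbours often differed in the size of their response. CRK20 and CRK21, next to each other, differed by 8.57 in log2 fold change in Col-0, CRK39 and CRK40 by 6.02, and CRK30 and CRK31 by 5.73. CRK28 and CRK29 differed by 0.14 and CRK31 and CRK32 by 0.20. Over 27 pairs of adjacent members the median absolute difference was 1.80, over all 208 pairs within a run 2.12, and over 533 pairs from different runs or loci 2.25, given as a description. Close copies could differ too. CRK39 and CRK40 share 86.4% of aligned coding bases, and CRK40 went from 56.2 ± 7.89 CPM to 62.0 ± 16.0 CPM with ozone (SD, n = 4; log2 fold change 0.14 ± 0.20, SE; edgeR adjusted p = 0.531).

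In libraries labelled wrky25 wrky33 ozone raised 33 members and lowered 3, with a median log2 fold change of 2.91, and 65% of all genes were called, 31.1% higher and 33.9% lower. In libraries labelled wrky75 it raised 31 and lowered 3, with a median of 2.58 and 68.1% of all genes called, 32% higher and 36.1% lower. The members that fell were CRK21, CRK22 and CRK42 in each genotype. These comparisons do not share libraries with the one in Col-0.

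CRK31 had no count in the 3 control libraries of wrky25 wrky33 and stood at 18.8, 14.5 and 11.4 CPM under ozone there. In wrky75 the control libraries held 0, 0.0479 and 0.101 CPM of it and the ozone libraries 15.4, 11.4 and 9.64 CPM, a ratio of 243 from 748 to 3 counts (95% interval 82.9 to 1182, counting error only). CRK32 had 1 count in the control group of each mutant and rose to 1.47, 1.29 and 1.35 CPM in wrky25 wrky33 and 1.88, 2.82 and 2.24 CPM in wrky75. Its ratios were 82.0 (95% interval 14.4 to 3276) and 141 (24.8 to 5588). The order of such ratios cannot be read, since each rests on a single control read.

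CRK13 (AT4G23210, chr4:12148673-12151638), whose overexpression is known to raise salicylic acid and resistance, went from 2.48, 2.35 and 0.912 CPM to 189, 321 and 243 CPM in wrky25 wrky33 (log2 fold change 7.03 ± 0.48, SE; edgeR adjusted p = 1e-09). At 95.7 CPM per kb of RefSeq exon it was the highest member of that ozone group, and it led there in CPM as well. In wrky75 CRK36 led by RefSeq length with 68.2 CPM per kb, and CRK11 led in CPM. CRK39 rose by 7.01 ± 0.44 in wrky25 wrky33 and 6.30 ± 0.42 in wrky75 (SE; edgeR adjusted p = 4.05e-10 and 6.16e-10). CRK20 rose by 5.28 ± 0.38 in wrky25 wrky33 and 7.14 ± 0.37 in wrky75 (edgeR adjusted p = 1.93e-09 and 2.26e-11).

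CRK4 and CRK40 passed the test in wrky25 wrky33 alone. CRK4, another kinase whose overexpression triggers cell death, went from 26.9, 28.3 and 16.4 CPM to 66.5, 48.8 and 50.9 CPM there (log2 fold change 1.22 ± 0.28, SE; edgeR adjusted p = 0.00107), against 0.15 in Col-0 and 0.18 in wrky75. For CRK40 the value was 0.77 ± 0.23 (edgeR adjusted p = 0.00655). The differences from the response of Col-0 did not pass, with 1.06 ± 0.37 for CRK4 and 0.63 ± 0.30 for CRK40 (edgeR adjusted p = 0.276 and 0.556).

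Without ozone no member differed between a mutant and Col-0 past the threshold. For wrky25 wrky33 edgeR called 0 of 39 and 0.0251% of all genes, and DESeq2 called 1, CRK23, as lower. At an unadjusted p below 0.05 in edgeR were 12 of 39 members and 683 of 19954 genes. For wrky75 edgeR and DESeq2 called 0 of 39, and edgeR called 0.0251% of all genes. Here 11 of 39 members and 931 of 19954 genes had an unadjusted p below 0.05 in edgeR. Still, 34 of 39 members lay below 0 in each comparison, with median log2 differences of -0.55 and -0.32, where 48.5% and 49.5% of all genes lay below 0. The 39 include members with few or no control reads, such as CRK31 and CRK32. In fits of the groups of each comparison alone, 34 members passed the filter on counts. Of these, 30 lay below 0 in each comparison, with medians of -0.49 and -0.34. Both comparisons use the same 4 Col-0 libraries. Of these, replicate 2 was the highest for 18 of 39 members, such as CRK45 with 7.73, 44.2, 17.1 and 10.4 CPM and CRK6 with 6.52, 31.9, 17 and 10.1 CPM. Without that library the medians were -0.35 and -0.17, and 34 members lay below 0 in each. On the side of the mutants, replicate 3 was the lowest control library for 24 of 39 members in wrky25 wrky33 and for 25 in wrky75. Without it the median was -0.37 in wrky25 wrky33, with 34 members below 0, and -0.19 in wrky75, with 31 below 0.

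Under ozone 5 members differed between wrky25 wrky33 and Col-0, 4 lower and 1 higher (edgeR), where 5.33% of all genes were called, 3.77% lower and 1.56% higher. The members' median log2 difference was -0.02. CRK20, with 27.3, 26.2, 18.9 and 32.4 CPM in Col-0, had 6.21, 7.30 and 6.71 CPM in wrky25 wrky33, less than in any library of Col-0 (log2 difference -1.96 ± 0.22, SE; edgeR adjusted p = 2.16e-05). In wrky75 it had 27.7, 20.2 and 17.4 CPM. CRK22 had 8.44, 7.30 and 7.88 CPM in wrky25 wrky33 against 13.4 to 20.5 CPM in Col-0, again with no overlap (-1.15 ± 0.15; edgeR adjusted p = 8.53e-05). Both calls held in each of the 26 alternative fits, with adjusted p of at most 0.000903 for CRK20 and 0.00657 for CRK22.

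The other 3 calls, from the same libraries, were less stable when a library was left out. CRK28 had 34.0, 48.0 and 40.6 CPM in wrky25 wrky33 against 53.3, 68.9, 59.8 and 59.9 CPM in Col-0 (log2 difference -0.56 ± 0.13, SE; edgeR adjusted p = 0.0118). CRK8 (AT4G23160, chr4:12129485-12134209), which can share reads with CRK6, had 2.37, 1.52 and 1.89 CPM against 2.49, 4.30, 4.21 and 3.76 CPM (-0.94 ± 0.23; edgeR adjusted p = 0.0207). CRK42 was higher, with 8.1, 9 and 9.68 CPM against 5.62, 3.66, 3.25 and 6.94 CPM (0.88 ± 0.21; edgeR adjusted p = 0.0156). None of these groups overlapped. In control the means in wrky25 wrky33 and Col-0 were 0.251 and 0.447 CPM for CRK8, 4.51 and 5.17 for CRK28, and 24.7 and 23.6 for CRK42.

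Leaving out 1 library ended these 3 calls in some cases. CRK28 lost its call without wrky25 wrky33 ozone replicate 1 or 3 (edgeR adjusted p = 0.0845 and 0.0605). CRK8 lost it without Col-0 ozone replicate 2 or 3 (edgeR adjusted p = 0.0713 and 0.0594) or wrky25 wrky33 ozone replicate 2 or 3 (0.13 and 0.0944). CRK42 lost it without Col-0 ozone replicate 2 (edgeR adjusted p = 0.0615) or wrky25 wrky33 ozone replicate 2 or 3 (0.0545 and 0.0836). In a fit of these 2 groups alone all 3 calls were lost, with edgeR adjusted p of 0.0561, 0.0734 and 0.105. The same fit called CRK13 higher (edgeR adjusted p = 0.0347) and CRK7 and CRK23 lower (0.0294 and 0.00593).

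With the replicate number as a block, which pairs these libraries, 3 members were higher (CRK12, CRK13 and CRK42) and 6 lower (CRK7 and CRK23 in addition). CRK13 had 189, 321 and 243 CPM in wrky25 wrky33 against 103, 162, 116 and 119 CPM in Col-0. Its log2 difference was 1.01 ± 0.33 (SE; edgeR adjusted p = 0.0891), and 0.90 ± 0.21 with the block (edgeR adjusted p = 0.00954). CRK7 had 35.1, 36.8 and 49.2 CPM against 76.7, 156, 176 and 81.6 CPM, a log2 difference of -1.60 ± 0.46 (edgeR adjusted p = 0.0528, and 0.0035 with the block). CRK23 had 6.45, 5.26 and 4.46 CPM against 11.2, 14, 10.4 and 13.4 CPM, a log2 difference of -1.18 ± 0.36 (edgeR adjusted p = 0.0711, and 0.0213 with the block). CRK23 was also called by DESeq2 (adjusted p = 0.0443) and without Col-0 control replicate 1 or 2 (edgeR adjusted p = 0.034 and 0.0177). CRK7 was also called in 8 fits that left out 1 or 2 libraries, with edgeR adjusted p of 0.0268 to 0.0468. In all 3 the groups did not overlap, and CRK13 lay higher while CRK22, the gene with which it can exchange reads, lay lower. Over all genes 5.86% lay apart as higher and 7.34% as lower, against 4 and 8 of the 39 members. CRK7 and CRK23 were lower in wrky25 wrky33 without ozone too. Their control means were 2.03 against 7.41 CPM in Col-0 for CRK7 and 0.716 against 2.62 CPM for CRK23. For CRK13 they were 1.91 against 2.8 CPM.

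**Figure D3:**
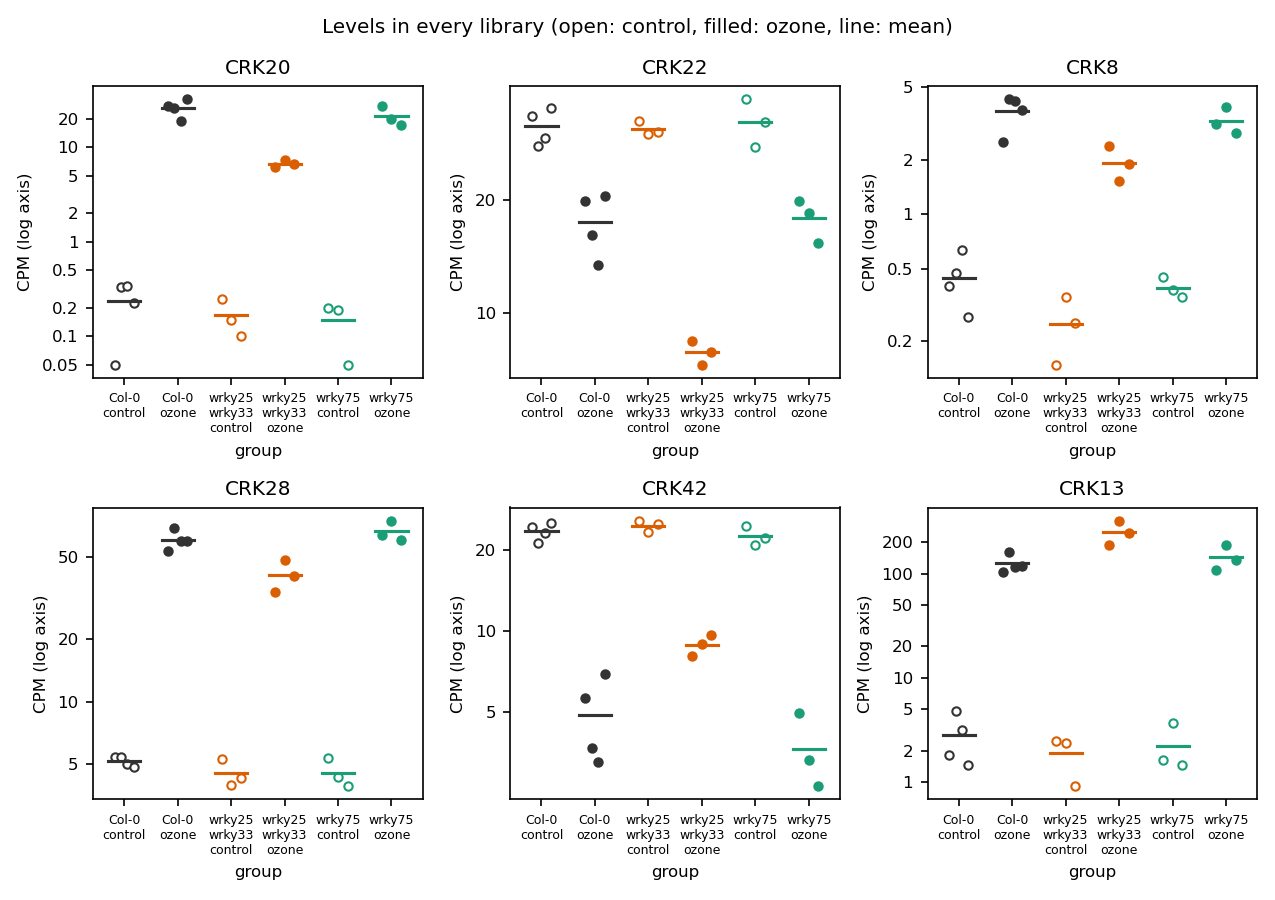
Level of 6 members in every library, in CPM on a log axis (open points control, filled points ozone, lines group means). Ozone libraries labelled wrky25 wrky33 lie below those of Col-0 for CRK20, CRK22, CRK8 and CRK28 and above them for CRK42 and CRK13, of which CRK13 did not pass in the fit of all 20 libraries without the block.

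Whether the ozone response itself differed was tested as a difference of fold changes. In wrky25 wrky33 only CRK22 passed among the 39 members, and its fall was deeper than in Col-0 by a log2 value of -1.12 ± 0.20 (SE; edgeR adjusted p = 0.00928, and 4.06e-05 to 0.0381 over the alternatives). Over all genes 0.957% were called, 0.692% lower and 0.266% higher. CRK22 stood at 32.3, 30 and 30.2 CPM in control libraries of wrky25 wrky33, within the range of Col-0. For CRK20 the difference was -1.45 ± 0.69 (edgeR adjusted p = 0.555), with control levels of 0.248, 0.15 and 0.101 CPM in wrky25 wrky33 that rest on few reads. The sign was positive in 30 of 39 members, with a median of 0.49, or 0.31 without Col-0 control replicate 2. In edgeR 12 members had an unadjusted p below 0.05, as did 1810 of 19954 genes. Over all genes 50.9% lay below 0.

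**Figure D4:**
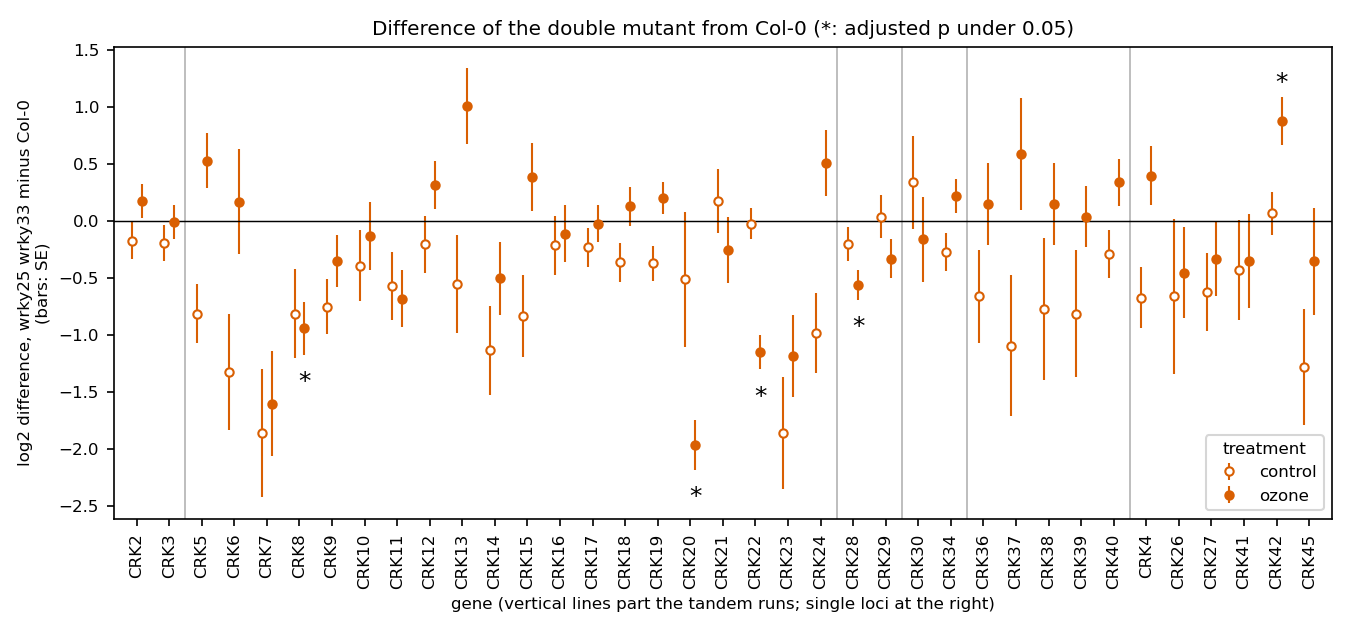
Log2 difference of wrky25 wrky33 from Col-0 in control (open) and under ozone (filled), with SE bars, for 37 members; CRK31 and CRK32 are left out because their control groups held few or no reads. Asterisks mark the 5 members past the threshold under ozone, CRK8, CRK20, CRK22 and CRK28 below 0 and CRK42 above it.

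For wrky75 under ozone edgeR and DESeq2 called 0 of 39 members, and edgeR called 0.0251% of all genes. At an unadjusted p below 0.05 in edgeR were 2 members, CRK23 and CRK4, and 333 of 19954 genes. The median log2 difference was -0.21, and 32 of 39 members lay below 0, as did 55.1% of all genes. Replicate 3 was the lowest ozone library of wrky75 for 25 of 39 members, and without it the median was -0.10, with 28 members below 0. Without Col-0 ozone replicate 4, the highest of its group for 23 members, the median was -0.12, with 29 below 0, and with the replicate block it was -0.16, with 29 below 0. The difference of ozone responses also gave 0 of 39 in edgeR and DESeq2, with 0% of all genes called in edgeR. At an unadjusted p below 0.05 in edgeR were 1 member and 349 of 19954 genes. The log2 difference of CRK13 from Col-0 was 0.21 ± 0.33 in this mutant (SE; edgeR adjusted p = 1).

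The W-box letters were spread over members of every kind of response. In Col-0 the 14 tested members without a match had 11 rises and 2 falls (median log2 fold change 2.48). The 11 with 1 match had 9 rises and 1 fall (2.93), and the 14 with at least 2 matches had 12 rises and no fall (1.76). Over all genes 33.3% rose and 36.4% fell, and a difference by number of matches was not tested. Of the 4 members lower in wrky25 wrky33 under ozone, CRK22 and CRK28 had no match and CRK20 and CRK8 had 1 each. The window of CRK28 lies within the gene CRK29. None of the 14 members with at least 2 matches was called, where 5.33% of all genes were called. With 14 genes a difference from that share cannot be read. CRK42, which was higher, had 1 match.

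Related genes were read from 2 lists, chosen with earlier results of these data known, so their counts are given as a description. All 11 genes of the list of receptor complexes and NADPH oxidases rose under ozone in each genotype. Of all genes 33.3% rose in Col-0, 31.1% in wrky25 wrky33 and 32% in wrky75. The median log2 fold changes of the list were 2.15 in Col-0, 2.59 in wrky25 wrky33 and 2.23 in wrky75. In Col-0 the cytoplasmic kinase BIK1 rose by 4.07 ± 0.18, the co-receptors BKK1 and BAK1 by 3.16 ± 0.18 and 2.88 ± 0.11, and the receptor EFR by 2.94 ± 0.17 (SE). RBOHD, the oxidase that CRK2 phosphorylates, rose by 2.20 ± 0.20. Under ozone the list had 1 call between wrky25 wrky33 and Col-0, where 5.33% of all genes were called. It was RBOHF, with a log2 difference of -0.46 ± 0.10 (edgeR adjusted p = 0.0112).

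Plasmodesmata-located proteins carry DUF26 domains outside the cell, as CRKs do, but no kinase. Their median log2 fold change under ozone was 0.04 in Col-0, -0.43 in wrky25 wrky33 and -0.03 in wrky75. Of 7 tested, 1 rose and 3 fell in Col-0, where 33.3% of all genes rose and 36.4% fell. In wrky25 wrky33 2 rose and 4 fell (31.1% and 33.9% of all genes). In wrky75 2 rose and 3 fell (32% and 36.1% of all genes). With 7 genes, a difference from these shares was not tested. PDLP5 rose in Col-0 by 1.73 ± 0.27, and PDLP2 and PDLP3 changed by -1.39 ± 0.11 and -1.57 ± 0.14 (log2 fold change, SE). PDLP1 reached 13.3 ± 5.37 CPM in wrky25 wrky33 under ozone (SD, n = 3) and 4.54 ± 1.55 CPM in Col-0 (SD, n = 4), a log2 difference of 1.54 ± 0.30 (SE; edgeR adjusted p = 0.00403).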

How the data were processed

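RNA was measured in 20 libraries of whole rosettes in 6 groups, assigned by the labels. The authors deposited raw counts of reads for each gene. TopHat2, SAMtools, HTSeq, FastQC and the build TAIR10 are named in the submitters' processing notes. Their versions, the strand option and the handling of reads with several positions are not stated in these sources. The TruSeq v2 kit named in the labels' protocols does not mark strand.

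Counts were filtered with filterByExpr, scaled with TMM and tested in 1 fit of all 20 libraries with edgeR 4.0.16 (R 4.3.3), whose quasi-likelihood p-values were adjusted over 19954 genes by the Benjamini-Hochberg method at 0.05. The procedure was checked on simulated data. DESeq2 1.42.0, upper-quartile factors, no filter, a replicate block, the groups of a comparison alone and leaving out libraries were alternatives. Levels are CPM on TMM-scaled libraries. The p-values measure the spread between pools, and intervals and floors cover counting error only. The biological coefficient of variation was 17.2%.

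A tandem run joins members whose locus numbers lie at most 50 apart. Coordinates, gene structures and sequences are from RefSeq on TAIR10.1, where 32835 of 33323 nuclear genes matched by locus tag. Of these, 56.76% had the same start or end as the counted model. Levels per kb divide counts on the deposited models by RefSeq exon lengths. Coding sequences were aligned with MAFFT 7.526. The members and lists were chosen with earlier results of these data known. Members named with full values were the 4 largest rises and up to 4 falls under ozone and every member called between genotypes; CRK13, CRK7, CRK23, CRK30 and the members with known roles were named after their values were seen.

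Same-numbered libraries deviated together (every correlation of deviations over 0.1) between wrky25 wrky33 and Col-0 under ozone (0.31 to 0.58), wrky75 and Col-0 under ozone (0.47 to 0.68), wrky25 wrky33 and Col-0 in control (0.18 to 0.47) and Col-0 ozone and control (0.11 to 0.38), so the number was read as pairing there. The remaining group pairs did not meet this rule. They were wrky25 wrky33 ozone and control (-0.08 to 0.07), wrky75 ozone and control (-0.01 to 0.27), and wrky75 and Col-0 in control (0.09 to 0.48). The last missed it narrowly, so pairing there is not settled.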

Additional observations from a re-analysis of the deposited data

Results flagged for a closer look

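CRK17 stood at 30.7, 31.1, 30.4 and 37.9 CPM in Col-0 control, where replicate 4 (37.9 CPM) lay far from the other libraries. CRK32 had a count in Col-0 control replicate 3 alone (0.0489 CPM, 1 count). Chance marks about 1 in 20 groups in this way, and 2 of 78 member and group pairs were marked. The ozone response of CRK22 differed between wrky25 wrky33 and Col-0, with a log2 difference of -1.12 ± 0.20 (SE; edgeR adjusted p = 0.00928).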

How the results depend on the processing

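Counts of called members moved by less than 1.5 times under most alternatives. For wrky25 wrky33 against Col-0 in control, DESeq2 called 1 member lower instead of 0. For wrky25 wrky33 against Col-0 under ozone, the replicate block gave 3 higher instead of 1, and leaving out each library gave 0 to 1 higher and 2 to 6 lower. For the difference of ozone responses, the replicate block gave 2 members higher (CRK5 and CRK13) and DESeq2 gave 1 (CRK5) instead of 0, and leaving out each library gave 0 to 1; here the numbers pair only some of the groups. Beyond these, CRK12 and the lower calls of CRK7 and CRK23 under ozone, the block changed no member's call. The cause of these shifts was not tested. Of values of the members named by rule, 690 kept their side of the threshold and 12 lost it, all of CRK8, CRK28 and CRK42 in wrky25 wrky33 under ozone. No value reversed. Depth limits CRK31, CRK32 and the members not tested, whose control levels lie at or near single reads.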
